A study of Drosophila melanogaster with 4 samples.

Results

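H2Av clusters on chromosome arm 3L were examined in the heads of adult fruit flies (Drosophila melanogaster), all wild type and of the Oregon-R strain. The authors' cluster lists give regions enriched for H2Av by chromatin immunoprecipitation and sequencing (ChIP-seq), as a start, an end and 1 score each, on FlyBase release 5. A cluster was taken when it lay on 3L and started at or below position 22543557, which leaves out the 2 Mb at the centromere end of the 24543557 bp arm. This gave 1085 of 6778 clusters in replicate 1, 1146 of 6672 in replicate 2 and 1253 of 7576 in the replicate set list, the authors' single list for both replicates. The ChIP group held 2 libraries made with an antibody named 9751 against H2Av, and the input group held 2 libraries, 1 for each ChIP. Every library came from wild-type flies labelled as mixed adults, raised together in population cages, whose heads were separated with sieves. Each library therefore pools many animals and all cell types of the head, so that H2Av in fewer cells and less H2Av per cell cannot be told apart. Nothing in the labels says that the replicates were separate fly populations, and their spread may be purely technical. The lists hold no read counts, so depth is unknown, and a stretch outside clusters is one that was not listed, not one shown to lack H2Av.

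H2Av is the histone H2A variant of Drosophila that combines the roles of H2A.Z and H2A.X in other animals. It is known from nucleosomes near the start sites of active genes, from silent heterochromatin, and, in phosphorylated form, from sites of DNA damage. Along fly chromosome arms, gene-dense active stretches alternate with long silent ones. Arm 3L is the left arm of the third chromosome, with its telomere at the low-coordinate end and its centromere at the high-coordinate end. Genes under the clusters were not analysed here, so regions are named by position alone.

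On 3L, H2Av clusters took up a similar minor share of the sequence in both replicates. They covered 5.13 Mb (22.7%) in replicate 1 and 5.16 Mb (22.9%) in replicate 2, a mean of 22.8 ± 0.102% (SD, n = 2). The replicate set list covered 6.08 Mb, or 27.0%. There were 48.1 and 50.8 clusters per Mb in replicates 1 and 2 (49.5 ± 1.91, SD, n = 2). The first cluster began at 51118 in replicate 1 and 51109 in replicate 2, so the telomere ends were alike. The last cluster ended at 22287833 in replicate 1 and at 22283535 in replicate 2, and these were different clusters that shared no base.

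Most 3L clusters were a few kb wide, but broad ones held much of the covered length. The median width was 3244 bp in replicate 1 and 3113 bp in replicate 2 (3179 ± 92.6 bp, SD, n = 2). The middle 50% of widths ran from 1937 to 5766 bp and from 1923 to 5566 bp. Clusters up to 2 kb numbered 292 and 309, or 26.9% and 27.0% of the 3L clusters, and held 9.08% and 9.49% of the summed width. Clusters over 10 kb numbered 111 and 100. That was 10.2% and 8.73% of the 3L clusters, against 11.1% and 9.74% in the whole lists, so the 3L shares by number lay near those of all clusters. They held 32.3% and 28.5% of the 3L cluster length (30.4 ± 2.73%, SD, n = 2). The widest cluster measured 48.3 kb in replicate 1 and 41.3 kb in replicate 2, at different positions.

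**Figure D1:**
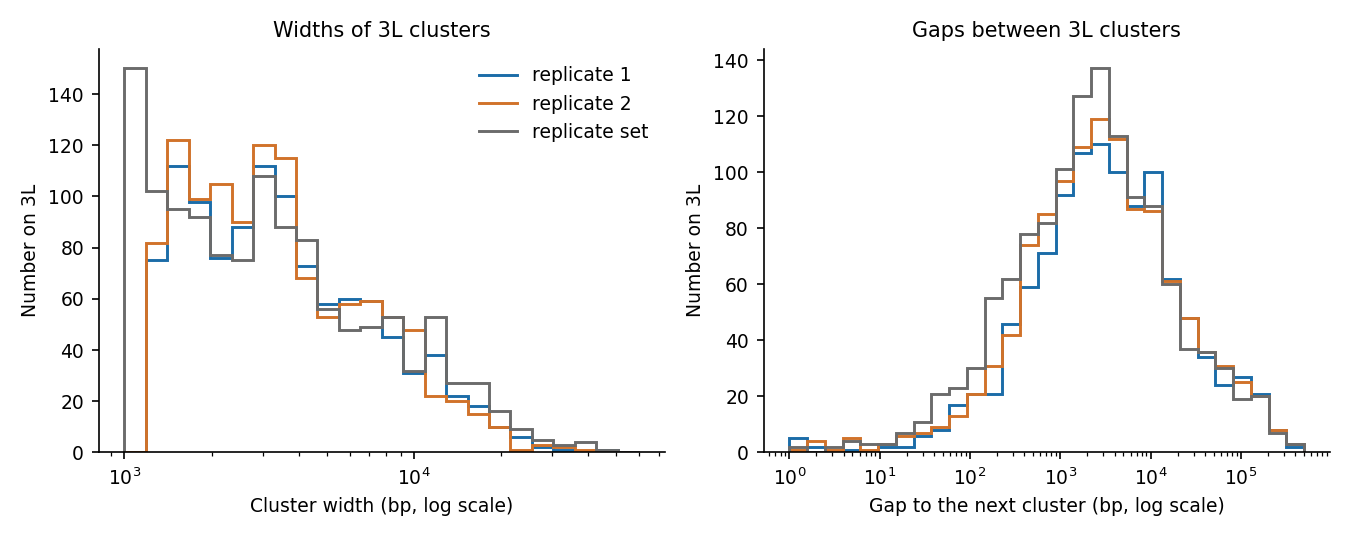
Left, number of 3L clusters by width; right, number of gaps between neighbouring 3L clusters by length, both on a log axis in bp, with 1 line for each list. The replicate lines run close together, while the replicate set has more clusters under 1.3 kb (left) and a lower median gap of 2341 bp (right); gaps of 0 or less are drawn at 1 bp.

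Coverage was concentrated in part of the arm. Of 226 windows of 100 kb (the last one 43.6 kb long), 36 were empty in replicate 1 and 34 in replicate 2, and 30 of these were shared. At the other end, 24 and 27 windows were covered over more than 50% of their length, 21 of them in both. Median coverage per window was 19.2% in replicate 1, and in replicate 2 it was 19.4%. The 25% of windows with the highest coverage held 56.4% and 56.0% of the 3L cluster length, and the 50% with the lowest held 13.2% and 13.8%. The distribution along the arm was thus similarly uneven in both lists.

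**Figure D2:**
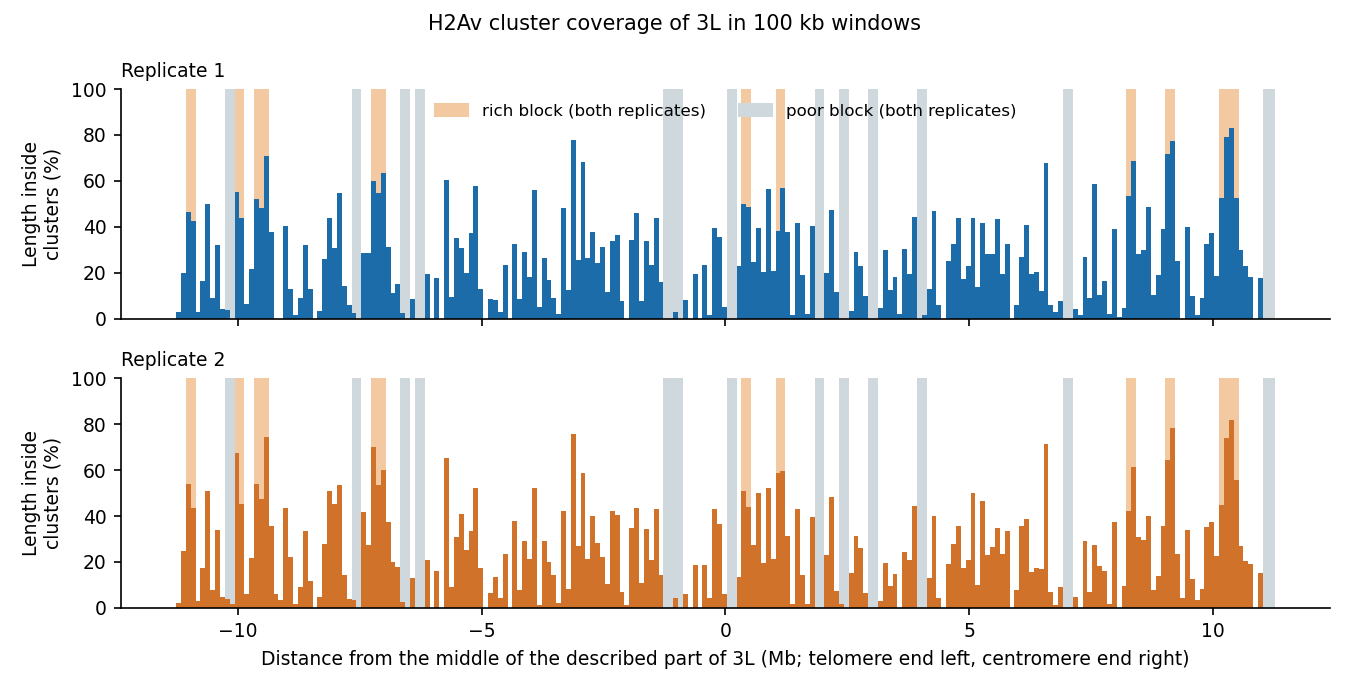
Percent of each 100 kb window of 3L inside H2Av clusters in replicate 1 (top) and replicate 2 (bottom), against distance from the middle of the described part in Mb, telomere end left. Orange bands mark the 9 rich blocks and grey bands the 12 poor blocks; the highest bars reach 82.9% and 81.9% in the same window near the right end.

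Rich and poor windows were defined within 3L. A window was rich when its coverage reached the upper quartile of the 3L windows of its list (37.1% in replicate 1, 37.0% in replicate 2), and poor when it did not exceed the lower quartile (3.79% and 4.33%). By this definition 57 windows were rich and 57 poor in each list. Both replicates named the same 49 windows rich and the same 53 poor, and no window was rich in one and poor in the other. The 49 were 21.7% of the 3L windows, against 24.1% of 663 windows on 2L, 2R and 3R at the same limits, and the 53 were 23.5%, against 20.7%. Rich and poor windows lay side by side at 12 places.

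Neighbouring rich windows formed 9 blocks of at least 2 windows, which held 22 of the 49. The longest ran from 21400001 to 21800000 (400 kb), with 66.7% of its bases inside clusters in replicate 1 and 64.1% in replicate 2 (65.4 ± 1.83%, SD, n = 2). It held 38 and 46 clusters, of which 12 and 6 were over 10 kb. Blocks of 300 kb followed from 4000001 to 4300000 (59.4% and 61.1%) and from 1600001 to 1900000 (57.1% and 58.6%). The most densely covered block was the 200 kb from 20300001 to 20500000, at 74.6% in replicate 1 and 71.4% in replicate 2, built from 16 and 18 clusters with median widths of 7953 and 4904 bp. Its median widths were thus higher than those of the longest block, 3864 and 3657 bp. The cluster counts of these blocks are not compared, because their lengths differ.

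The other 5 rich blocks were 200 kb each. The one from 19500001 to 19700000 was covered to 60.9% and 51.8%, and the one from 12300001 to 12500000 to 47.6% and 59.3%, so these differed more between the replicates (SD 6.40 and 8.24 percentage points). The block from 1200001 to 1400000 stood at 49.5% and 56.4%, the one from 11600001 to 11800000 at 49.3% and 47.4%, and the one from 200001 to 400000 at 44.5% and 48.9%. All 5 remained covered to at least 44.5% in each replicate. In the block from 12300001 to 12500000, 57.1% of the length listed in either replicate was listed in both, against 72.0% to 84.0% in the other 8.

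The single most covered window was the one from 21600001 to 21700000, at 82.9% in replicate 1 and 81.9% in replicate 2. Next came 20400001 to 20500000 (77.4% and 78.4%) and 8100001 to 8200000 (77.6% and 75.6%). The window from 8100001 stood alone: neither neighbour was rich in both lists. These windows were chosen after their values had been seen.

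Poor windows formed 12 blocks, with 27 of the 53 windows. The longest ran from 10000001 to 10400000 (400 kb), with 1 cluster of 2955 bp in replicate 1 and 2 clusters in replicate 2 (0.739% and 1.02% covered). The next, from 22300001 to the last base described (244 kb), had no cluster in any list. The same held for 5 blocks of 200 kb beginning at 4900001, 11300001, 13100001, 14200001 and 18200001. The block beginning at 15200001 had 1 cluster, in replicate 1, and the block beginning at 13600001 had 1, in replicate 2. The replicate set list had no cluster in either block. The block beginning at 4600001 held 1 cluster in each list, covering 1.23% in replicate 1 and 1.17% in replicate 2.

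Measured base by base, stretches with no cluster in either replicate were also long. There were 84 over 50 kb, which together made up 44.5% of the described sequence, and 39 over 100 kb (29.9%). The longest spanned 344 kb from 18108891 to 18452412, then 324 kb from 13044942 to 13369186. Next came 285 kb from 4836985 to 5122059 and 275 kb from 11227403 to 11502248. The stretch from 22287834 was 256 kb long up to the last base described and went on beyond it. Stretches of 236 kb from 9968614 and 224 kb from 10219397 lay on either side of the few clusters of the longest poor block. The remaining ones of the 10 longest began at 6258934 (218 kb), 14183957 (217 kb) and 13634121 (204 kb). The replicate set list placed a whole cluster inside 3 of these 10, at 18108891, 13044942 and 9968614, 1 cluster in each.

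Windows classed in one replicate were then measured in the other, so that the values did not come from the list that chose them. In the 57 windows rich in replicate 1, replicate 2 had a median coverage of 48.2% (lowest 27.3%, highest 81.9%), against 0% (lowest 0%, highest 15.4%) in the 57 poor ones. In the 57 windows rich in replicate 2, replicate 1 had a median of 48.0% (28.8% to 82.9%), against 0% (0% to 5.83%) in the poor ones. The rich and poor classes did not overlap in either direction. The windows between them ran from 1.29% to 45.3% in replicate 2 and from 0% to 58.7% in replicate 1, and overlapped both classes. Coverage in the 2 lists had a rho of 0.98 over all 226 windows, so separate outer quartiles add nothing to that. The median number of cluster starts was 9 per rich window and 0 per poor window both ways.

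Clusters in rich windows were also wider and higher in score. In windows classed by replicate 1, replicate 2 clusters had a median width of 3657 bp in rich windows (532 clusters), 2807 bp in those between (576 clusters) and 1701 bp in poor ones (38 clusters). Their median scores were 1.08, 0.909 and 0.865. In windows classed by replicate 2, replicate 1 clusters had median widths of 3688, 2863 and 1724 bp and median scores of 0.977, 0.852 and 0.796, in the same order. Clusters over 10 kb were 13.9% and 15.6% of the clusters in rich windows, 4.34% and 5.79% in those between, and 2.63% (1 cluster) and 0% in poor windows. Width and score moved together within each list (Spearman rho of 0.71 in replicate 1 and 0.76 in replicate 2 across 3L clusters), so these are not separate observations. Wide clusters also add to the coverage by which windows were classed, and the lists share most of their marked sequence. The width differences and the shares over 10 kb are therefore not independent of the classing, and nothing further is read from them.

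Window coverage was related both to the number of clusters and to their width. Coverage is built from these 2 quantities, so the relations follow largely from its definition. Across the 226 windows, coverage and the number of cluster starts had a rho of 0.91 in replicate 1 and 0.92 in replicate 2. Over windows with at least 3 clusters (149 and 147), coverage had a rho of 0.74 and 0.76 with the number of cluster starts and of 0.70 and 0.59 with mean width. The number of clusters and their median score were little related in those windows, with a rho of -0.14 and -0.05. Windows are neighbours on 1 arm in 1 library and share its calling, so these are descriptions without a p-value.

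The replicates gave nearly the same profile along the arm. Across the 226 windows of the arm, coverage in replicate 1 and coverage in replicate 2 were related with r = 0.97 (Pearson) and rho = 0.98 (Spearman). The median absolute difference was 1.95 percentage points, and 181 windows (80.1%) differed by at most 5 points. Replicate 2 was higher in 102 windows, replicate 1 in 94, and 30 were equal because both were empty, so neither list was higher along the whole arm. Differences above 10 points were found in 10 windows, 7 of them higher in replicate 2.

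**Figure D3:**
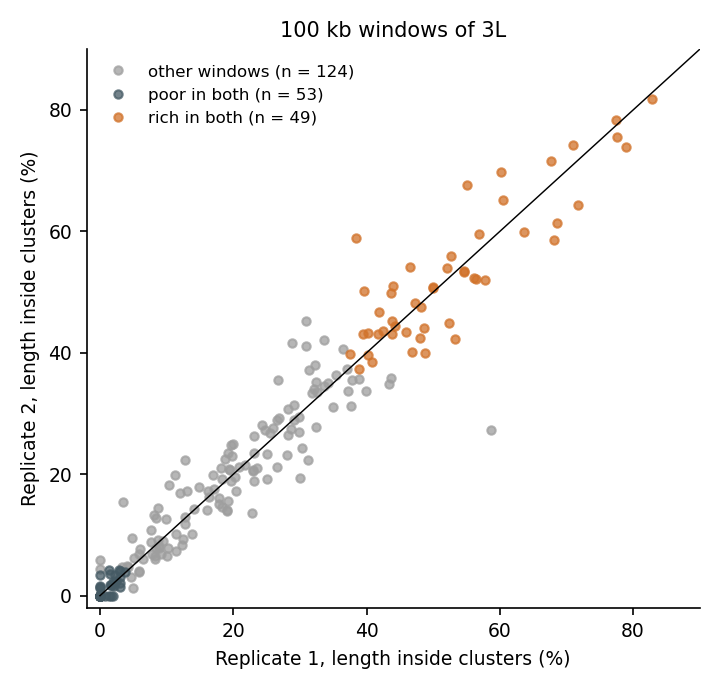
Each point is a 100 kb window of 3L, placed by the percent of its length inside clusters in replicate 1 (x) and replicate 2 (y); the line marks equal values. The 49 windows rich in both and the 53 poor in both lie at opposite ends of the line, and 1 window at 58.7% and 27.3% stands apart below it.

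The similarity of neighbouring windows faded quickly. The rho between a window and the next was 0.26 in replicate 1 and 0.28 in replicate 2, that between windows separated by 1 other window was 0.13 and 0.14, and at 3 windows apart it was 0.00 and 0.01. Beyond neighbouring windows, coverage was thus little related along 3L in both lists.

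In steps of 2 Mb, coverage showed no steady trend from telomere to centromere. The highest step ran from 20000001 to 22000000, at 35.5% in replicate 1 and 34.2% in replicate 2 (34.9 ± 0.915%, SD, n = 2). By mean coverage, 8000001 to 10000000 came next (29.8% and 29.2%), then the telomere end, 1 to 2000000 (28.3% and 30.0%). The lowest full step ran from 14000001 to 16000000 (15.9% and 13.7%), followed by 10000001 to 12000000 (16.1% and 16.2%). The last 0.544 Mb, from 22000001, stood at 6.65% and 6.30%, directly next to the highest step. In the step from 10000001, clusters were sparse (31.0 and 34.0 per Mb) but wide, with medians of 3978 and 3478 bp, the highest and the next to highest of any full step in the 2 lists. The share of the length listed in either replicate that both listed was 78.6% in the step at the telomere end and lowest, at 57.7%, from 6000001 to 8000000.

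Spacing on 3L ranged from abutting clusters to a widest gap of 345 kb in both replicates. The median gap was 3141 bp in replicate 1 and 2773 bp in replicate 2 (2957 ± 260 bp, SD, n = 2). Gaps under 1 kb made up 26.0% and 27.7% of all gaps. Gaps over 50 kb were 85 and 88 in number, or 7.84% and 7.69%, but took up 47.6% and 47.2% of the sequence. A gap lies between neighbouring clusters, so the cluster-free ends of the described part are not counted in these shares. With clusters under 5 kb apart strung into chains, each replicate gave 430 chains, of which 189 and 181 were single clusters. The 59 and 63 chains of at least 5 clusters held 37.8% and 40.2% of all 3L clusters.

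Most windows of the longest chains were rich, but not all, while 21.7% of all 3L windows were rich in both lists. Long chains supply much of the coverage by which windows were classed, so nothing is read from this. In replicate 1 the longest spanned 139 kb from 8280946 to 8419594 with 18 clusters, and 1 of the 3 windows it touched was rich in both lists. The next spanned 116 kb from 8100387 to 8216557 with 15 clusters. In replicate 2 the longest spanned 190 kb from 21546673 to 21736732 with 21 clusters, and all 3 of its windows were rich. Replicate 1 had a 110 kb chain from 21626267 to 21735795 with 9 clusters, ending within 1 kb of it. Clusters filled 73.5% of the longest chain in replicate 1 and 84.2% of that in replicate 2.

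Cluster by cluster, the replicates shared most of the marked sequence. Of 6.08 Mb listed in either replicate, 4.21 Mb (69.3%) was listed in both, 0.917 Mb in replicate 1 alone and 0.949 Mb in replicate 2 alone. At least 1 shared bp was found for 896 replicate 1 clusters (82.6%), against 76.2% in the whole list, and for 915 replicate 2 clusters (79.8%), against 81.4% in the whole list. The share on 3L was thus above that of the whole list in replicate 1 and below it in replicate 2. Clusters that touched exactly 1 cluster of the other list, and were its only partner, formed 546 pairs. Their starts differed by a median of 265 bp and their ends by 283 bp, and in 279 pairs (51.1%) both edges lay within 500 bp.

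Within these pairs neither list was wider: replicate 2 had the wider cluster in 270 (49.5%). The score was higher in replicate 2 in 422 pairs (77.3%), with medians of 1.05 in replicate 1 and 1.15 in replicate 2. Across pairs the scores had a rho of 0.80 and the widths one of 0.84, for clusters that share the 2 libraries. Scores of the 2 lists are set side by side on the assumption of a common scale, which the file headers do not state.

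Broad 3L clusters were all found again in the other replicate, though often in pieces. All 111 replicate 1 clusters over 10 kb touched replicate 2, and all 100 replicate 2 clusters over 10 kb touched replicate 1. A wide region has more room for contact, so the covered share is given as well. The median broad cluster was covered by the other list over 95.7% of its length in replicate 1 and 97.6% in replicate 2, with lowest values of 49.4% and 56.8%. Of the 111, 28 touched 2 clusters of the other list and 17 touched 3 or more. Of the 100, 27 touched 2 and 9 touched 3 or more.

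The 10 widest matched clusters by mean width all started in rich windows, and 8 of the 10 lay wholly in them in replicate 1. Clusters this wide supply much of the coverage by which their windows were classed, so nothing is read from this count. Replicate 1 clusters were ranked by the mean width with their best match, and the 10 had 7 distinct best matches in replicate 2. They are therefore not 10 separate regions, and a wide partner put a 6.63 kb cluster among them. The widest ran from 16562391 to 16610649 in replicate 1 (48.3 kb) and touched 5 clusters in replicate 2, the best matched of them 28.1 kb wide. The region near 12.5 Mb showed the opposite, with 1 replicate 2 cluster from 12467886 to 12509226 (41.3 kb) set against replicate 1 clusters of 22.6, 6.63 and 10.4 kb. A 32.0 kb replicate 2 cluster from 21635553 to 21667522 likewise faced replicate 1 clusters of 22.8 and 17.8 kb. The remaining replicate 1 clusters of the 10 began at 20443810 (18.7 kb, 31.4 kb in replicate 2), 8144992 (31.0 kb, 17.5 kb in replicate 2), 326270 (22.4 kb, 23.4 kb in replicate 2) and 4260994 (18.7 kb, 26.8 kb in replicate 2). The pair at 326270 differed least in width.

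Ranked by mean score of the replicates, the top 10 matched clusters were 4.08 to 17.5 kb wide in replicate 1. All exceeded the median width of that list on 3L, 3244 bp, and most exceeded its upper quartile, 5766 bp. None was among the 10 widest. The highest spanned 19792788 to 19801770 in replicate 1 (8.98 kb), and scored 1.88 in replicate 1 and 2.26 in replicate 2 (2.07 ± 0.267, SD, n = 2). It was followed by 12525428 to 12531738 (1.99 and 2.10) and 1773757 to 1779255 (2.02 and 1.95). Next were 18855290 to 18867342 (1.79 and 2.14) and 17012786 to 17030320 (1.92 and 1.96), the widest of the 10 at 17.5 kb. Of the 10, 4 started in windows rich in both replicates and none in a poor one, so high single scores also occurred outside rich windows. For comparison, 505 of all 1085 replicate 1 clusters started in windows rich in replicate 2, and 27 in windows poor in it. These classes of 57 windows each are larger than the 49 rich and 53 poor in both replicates, so the shares are not directly comparable. No preference for or against rich windows is read from these counts. The remaining 5 began at 11093634, 16078718, 6957229, 20301812 and 4281041, with mean scores from 1.93 to 1.90.

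Clusters without a counterpart in the other replicate were narrow. The 189 in replicate 1 had a median width of 1594 bp and held 6.65% of the cluster length. The 231 in replicate 2 had a median of 1666 bp and held 8.64%. Of these, 54.5% and 56.3% lay within 5 kb of a shared cluster of the same list, and 4 and 10 lay over 50 kb from any. Matching rose steeply with width: 46.9% of clusters up to 2 kb touched the other list in both replicates, against 93.2% and 87.5% of those from 2 to 5 kb and 99.1% of those from 5 to 10 kb in both.

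Among clusters up to 2 kb, those with high scores were the least often found again. In replicate 1, 23 of them reached the median score of all 3L clusters of the list, and 0 of the 23 touched replicate 2, where a count of 0 allows a share of up to 13.0%. Of the 269 lower-scoring ones, 137 (50.9%) did. In replicate 2 the counts were 2 of 15 (13.3%) for high scores and 143 of 294 (48.6%) for lower scores. Between 2 and 5 kb the order was the opposite, with 96.7% matched at high and 89.2% at lower scores in replicate 1, and 94.7% and 80.1% in replicate 2. The same order was seen beyond 3L: on the other 4 large arms together, 11.4% of 88 high-scoring and 51.9% of 1078 lower-scoring narrow clusters matched in replicate 1, and 21.1% of 57 and 49.7% of 1137 in replicate 2. The exception was 2R in replicate 2, where 4 of 8 high-scoring narrow clusters (50.0%) matched, against 43.3% of the lower-scoring ones. This split by score was made with the values in view, and the limit covers counting error only.

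The highest score of any replicate 1 cluster on 3L belonged to this class. It lay at 18706708 to 18708611, was 1904 bp wide with a score of 2.33, and was listed neither in replicate 2 nor in the replicate set list, with the nearest replicate 2 cluster 26.6 kb away. The second highest, at 21369616 to 21370923 (1308 bp, score 2.07), was in neither of them too. Of the 10 highest scores, replicate 1 had 4 in such narrow clusters, whereas replicate 2 had none below 4062 bp. The replicate set list had its own highest 3L score, 2.87, in a cluster of 1013 bp in the window from 18500001 to 18600000. In all, 13 of the 23 in replicate 1 and 7 of the 15 in replicate 2 were in no other list, against 32 of 269 and 61 of 294 of the lower-scoring narrow clusters.

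**Figure D4:**
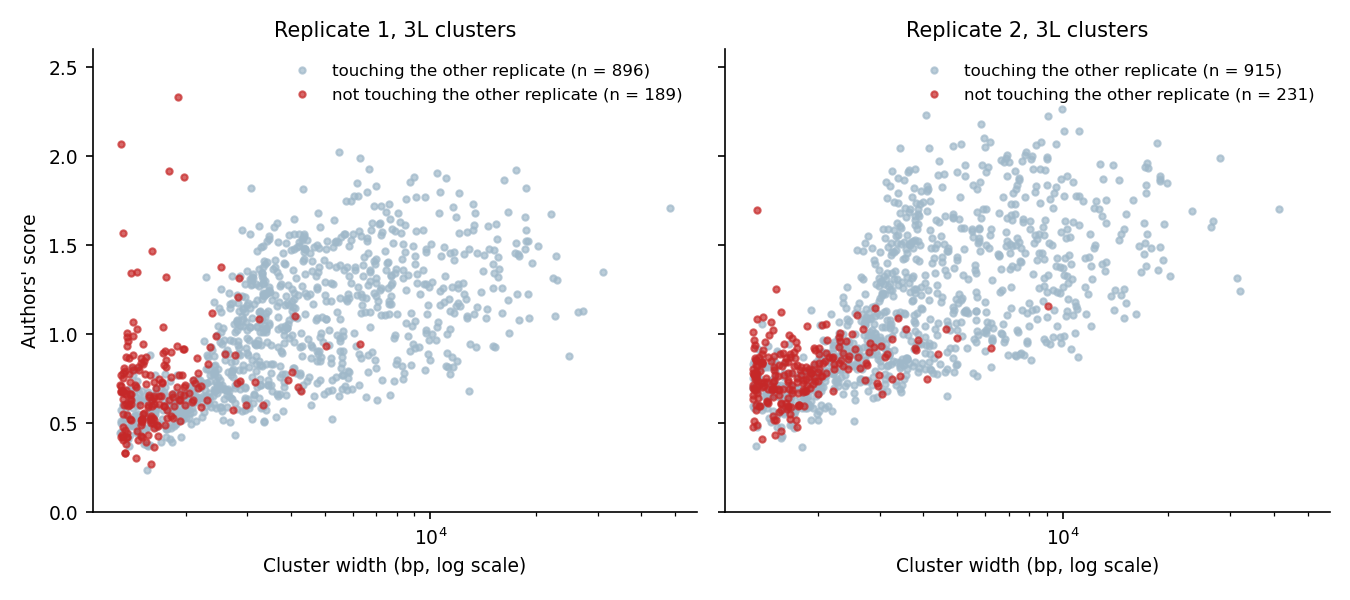
Score of each 3L cluster, as given by the authors, against its width in bp on a log axis, for replicate 1 (left) and replicate 2 (right); red points touched no cluster of the other replicate. Red points crowd at widths up to 2 kb, and the highest score in replicate 1, 2.33, is a red point 1904 bp wide.

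The replicate set list kept nearly all sequence found in both replicates, added narrow clusters and held more broad ones. It had 165 clusters over 10 kb, against 111 in replicate 1 and 100 in replicate 2. Of its clusters, 136 touched 2 or more clusters of replicate 1, and 170 touched 2 or more of replicate 2. On 3L it held 99.9% of the length listed in both replicates and 75.3% of that listed in only 1. By length, 69.2% of it matched both replicates, 12.4% only replicate 1, 10.7% only replicate 2, and 7.68% had no match. Of its 1253 clusters, 745 touched both replicates (median width 4741 bp, median score 1.01). A further 148 touched replicate 1 alone and 176 replicate 2 alone, with medians of 1589 and 1624 bp. The 184 clusters (14.7%) in neither had a median of 1182 bp, and 119 of them were narrower than the smallest replicate cluster on 3L, 1301 bp.

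Set beside the other large arms with the same 2 Mb left out, 3L was covered more than 2L and less than 2R and 3R. Coverage was 22.7% and 22.9% on 3L, against 20.9% and 21.2% on 2L in replicates 1 and 2, a difference of 1.84 and 1.74 percentage points (1.79 ± 0.0708, SD, n = 2). Against 29.1 ± 1.19% on 2R (SD, n = 2) the differences were -5.53 and -7.07 points, and against 24.3 ± 0.880% on 3R they were -0.889 and -1.99 points. Against X the sign changed between the lists, at -3.95 and 0.637 points. The arms come from the same 2 libraries, and an exact sign-flip test over 2 replicates cannot go below a two-sided p of 0.5, so no difference between arms was tested.

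Gaps over 50 kb followed the reverse order. They made up 47.4 ± 0.274% of 3L, against 53.6 ± 0.595% of 2L, 38.7 ± 0.418% of 2R and 44.2 ± 0.239% of 3R (SD, n = 2 each), and each of these differences exceeded its SD between replicates. Cluster-free sequence at the ends of each arm is left out of these shares. Median widths were similar, at 3179 ± 92.6 bp on 3L and 3098 ± 37.1, 3250 ± 30.8 and 3174 ± 43.8 bp on 2L, 2R and 3R, with signs that differed between the lists for 2L and 3R. The difference from 2R, at -28 and -116 bp, had the same sign in both. The median score on 3L, 0.934 ± 0.0474, was lower than the 1.12 ± 0.0146 on X in both replicates, with differences of -0.212 and -0.166. Against 2L and 3R the score difference changed sign between the replicates. Clusters over 10 kb held less of the cluster length on 3L than on 2L, 2R and 3R in both replicates. The differences were -3.05 and -4.83 percentage points from 2L, -6.22 and -8.12 from 2R, and -1.03 and -4.65 from 3R. Against X the sign changed between the replicates, and in the replicate set list 3L lay 1.02 points above 2L.

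**Figure D5:**
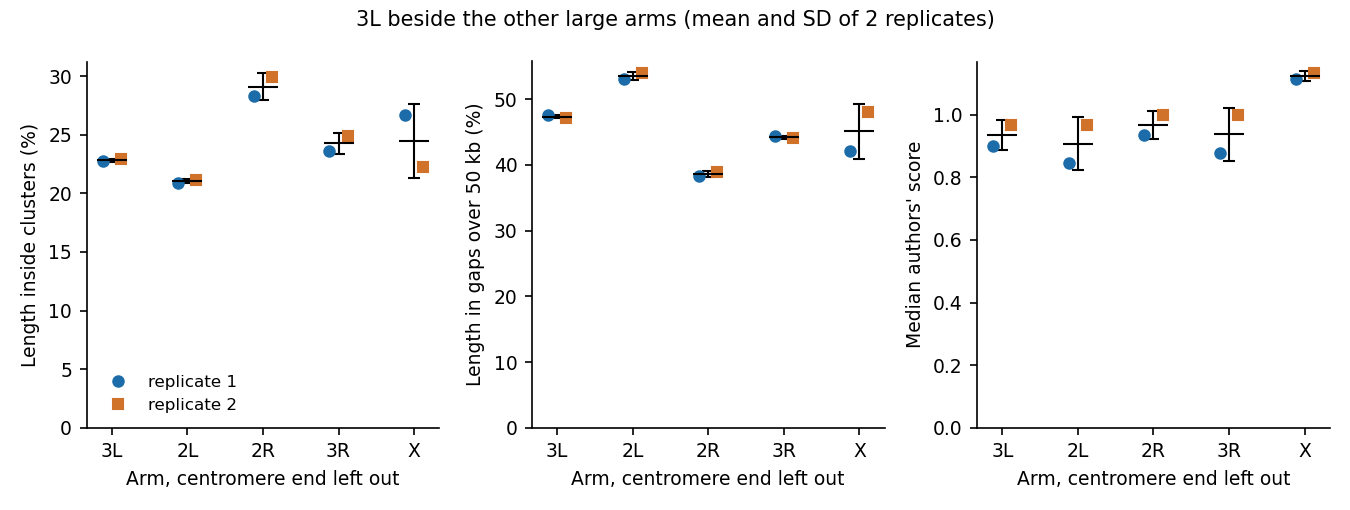
For 3L and the other large arms, left to right: percent of length inside clusters, percent of length in gaps over 50 kb, and median score as given by the authors. Points are the 2 replicates, the dash is their mean and the bar 1 SD; 3L lies between 2L and 3R in coverage and in long gaps, and X has the highest scores.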

How the data were processed

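Per the submitters' processing notes, reads were aligned with Bowtie 0.12.7, and per the file headers coordinates are on FlyBase release 5. The authors deposited 3 lists of enriched regions with 1 score per cluster, in place of read counts. Not given in the sources used here are the scale of the score, the caller, its threshold and how the replicate set was made. The labels tie each input to 1 replicate list, and the inputs enter only through these calls. The lists were read and described with Python 3.11.15, numpy 2.4.6, pandas 2.3.3, scipy 1.17.1 and matplotlib 3.10.9, and interval arithmetic was tested on simulated lists. Coverage is the length inside clusters over the 22543557 bp described. Overlap needs 1 shared bp. No test was made between arms or windows, and values of the 2 replicates are given with mean and SD (n = 2).

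The rule names 10 matched clusters by mean score, 10 by mean width, the 10 longest stretches without a cluster, and the 10 longest rich and poor blocks. Alternatives covered the upper 50% by score, the replicate set list, each replicate alone, joining of clusters, overlap, window size and arm length. The members, definitions and named regions were chosen with earlier results of these data known. Splits by width and score, 2 Mb steps and chains were chosen later, with the values in view. Gene coordinates were held for another genome release only, so genes, start sites and sequence under the clusters were not analysed here.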

Additional observations from a re-analysis of the deposited data

How the results depend on the processing

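Without replicate 1 or replicate 2, coverage lay between 22.7% and 22.9%, density between 48.1 and 50.8 clusters per Mb, and the longest stretch between 344.6 and 344.8 kb (344629 and 344843 bp, against 343522 bp in both lists together). The replicate set list gave 27.0% coverage, 55.6 clusters per Mb, a median width of 2983 bp, a median score of 0.613, 43.4% of length in broad clusters, a median gap of 2341 bp and a longest stretch of 335351 bp. Keeping the upper 50% of each list by score gave 15.5% coverage, 22.4 clusters per Mb, a median width of 5286 bp, a median score of 1.36, 41.5% in broad clusters, a median gap of 8077 bp and a longest stretch of 486041 bp. It also gave 66.9% of length in both replicates, 86.8% of replicate 1 clusters matched, a window rho of 0.946 and a ratio of 3L to the other autosomal arms of 0.896, against 0.926 in the full lists. Joining clusters under 1 kb apart gave 36.2 clusters per Mb, a median width of 3956 bp, 51.5% in broad clusters and a median gap of 5476 bp. With the whole arm, coverage was 23.6%, density 52.0 per Mb, the shared length 67.2% and the longest stretch 392692 bp. Requiring 50% of the cluster to be covered gave 75.1% matched. Windows of 50 kb and 200 kb gave a rho of 0.965 and 0.978, and 103 and 25 rich and 118 and 26 poor windows, which follows from the number of windows. Chosen after seeing the data, windows set 50 kb further along gave a rho of 0.973, and leaving out clusters up to 2 kb gave 73.1% shared length and 90.8% matched. Except where stated, the cause was not tested. The other 21 values, most of them from leaving out a replicate, moved by less than the replicate SD, or by under 1.5 times for counts. With 2 replicates, leaving 1 out always moves a mean by less than that SD, so those values say nothing about stability. No paired analysis was possible because a cluster list holds calls for the ChIP only, with no input value to pair by replicate number. Without read counts, what depth did to the narrow clusters was not tested.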

Other observations

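The window from 18800001 to 18900000 differed most between the replicates, with 58.7% covered in replicate 1 and 27.3% in replicate 2 (SD 22.2 percentage points, n = 2). The replicate set list covered it to 59.2%. Of the 14 replicate 1 clusters there, the 5 that touched replicate 2 had scores from 0.980 to 1.79. The 9 that did not had scores from 0.434 to 0.892 and summed to 23.4 kb. The same window held a cluster among the 10 highest-scoring matched ones of the arm, the one at 18855290. This window was chosen after its value had been seen.

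A few narrow high-scoring clusters of one replicate lay just beside one in the other without sharing a base. Replicate 1 had a cluster from 16276964 to 16278375 (score 1.07) and replicate 2 one from 16279612 to 16281007 (score 1.10), separated by 1236 bp, and neither was in the replicate set list. Of the 23 narrow high-scoring replicate 1 clusters, 5 started in windows poor in both replicates and 2 in windows rich in both (21.7% and 8.70%), against 5.14% and 28.1% of all 292 narrow clusters of that list. Of the 15 in replicate 2, 3 started in poor and 4 in rich windows (20.0% and 26.7%), against 5.50% and 31.7% of all 309 narrow ones. These counts are small and were not tested.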
